A study of Mus musculus with 6 samples.

Results

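The eosinophil granule genes Epx, Prg2, Prg3, Ear1 and Ear2 were followed across 6 single-colour Agilent arrays of mouse cochlear RNA. The members were the non-control probes whose gene name was one of these 5 symbols, which gave 6 probes of 56605 and 5 genes of 37318. The 5 symbols were chosen by their measured differences between these 6 arrays, so their levels and differences are a description. RNA came from the cochleae of female C57BL/6 mice aged 6 weeks, with 6 mice per group in the study's design and 1 array per group. The groups were noise only, dexamethasone 12 h, saline 12 h, dexamethasone 24 h, saline 24 h and baseline. Noise lasted 2 h in every group but baseline, which had neither noise nor injection. Dexamethasone, a synthetic glucocorticoid, was injected into the peritoneum at 10 mg/kg right after the noise, saline was its control, and the RNA was taken 12 or 24 h later. The sources used here give neither the time between noise and sampling in the noise-only group nor whether mice were pooled for an array.

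Eosinophils are granulocytes made in bone marrow, and their granules hold a small set of very basic, toxic proteins. These proteins are made mainly while the cell matures, so their RNA is abundant in eosinophil precursors and lower in the mature cell. Glucocorticoids are known to lower the number of eosinophils in blood and tissue. Epx encodes eosinophil peroxidase, which uses hydrogen peroxide to turn bromide into an oxidant. Prg2 encodes major basic protein, which forms the crystal core of the granule, and Prg3 encodes its homologue. Ear1 and Ear2 belong to the eosinophil-associated ribonucleases, a mouse gene family of near-identical copies related to human eosinophil-derived neurotoxin and eosinophil cationic protein.

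Probes of Epx, Prg2, Prg3 and Ear1 are shown because they are what the arrays read of these genes. Each probe is 60 bases long and was present as 1 spot. On mm9, the build of the file annotation, the Epx probe lies at chr11:87678288-87678347 and the Prg2 probe at chr2:84822799-84822858. Prg3, which lies beside Prg2, has a probe at chr2:84831668-84833177, whose span exceeds its length because the probe joins exons, and another at chr2:84833897-84833956. The Ear1 probe lies at chr14:44396709-44396768 and the Ear2 probe at chr14:44681119-44681178. The sources used here do not say which probes lie in coding and which in untranslated sequence. The exon-spanning Prg3 probe is printed for that gene, whose values below come from the other probe unless stated. A probe of Ear7 at chr14:52473974-52474033, not the one behind the Ear7 values below, is printed under that of Ear1, and the capitals in this pair mark the bases that differ between the aligned parts.
Epx: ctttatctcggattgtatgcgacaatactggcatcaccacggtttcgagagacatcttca
Prg2: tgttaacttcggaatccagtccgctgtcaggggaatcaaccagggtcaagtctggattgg
Prg3: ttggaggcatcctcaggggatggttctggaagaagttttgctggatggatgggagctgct
Ear1: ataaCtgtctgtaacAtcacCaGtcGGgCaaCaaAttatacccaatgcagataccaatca
Ear7: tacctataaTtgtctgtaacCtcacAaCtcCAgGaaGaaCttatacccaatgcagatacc

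The printed Ear1 and Ear7 probes overlap by 55 bases, of which 46 are identical and 9 differ. The Ear2 probe shares 40 of 45 aligned bases with a probe of Ear6, and the array's annotation assigns the Ear2 probe to both Ear1 and Ear2. Signal of these probes can therefore come from more than 1 gene of the family, and the values of Ear1 and Ear2 are uncertain as to the exact copy. The probes of Epx, Prg2 and Prg3 were not assigned to any gene of that family.

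The arrays were of similar quality. Each array held 59305 non-control spots and no saturated spot, the 75th percentile of the processed signal lay between 537 and 679, and 63.0% to 70.3% of probes were well above background. The saline 12 h and dexamethasone 12 h arrays shared 1 slide and the other 4 arrays another, so comparisons of a 12 h array with baseline cannot be told apart from the slide, while both dexamethasone comparisons were made within a slide. Of 14 marker genes of hair cells, supporting cells and lateral wall, set against the tissue label, 12 or 13 were well above background on both arrays of every comparison. Levels are log2 signal relative to the array's 75th percentile, so 0 stands for that percentile and 1 unit for a 2-fold difference. Intervals are 1.96 errors of the spot and cover spot error only, since 1 array per group leaves the spread between animals unmeasured and allows no test. That error is largely the software's preset 10% and not a measured spread, so within or beyond spot error refers to this preset. Replicate spots within an array had a median standard deviation of 0.0353 to 0.0382 on the log2 scale. In bulk RNA, fewer eosinophils and less RNA per eosinophil cannot be told apart.

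All 6 probes were well above background on all 6 arrays. Epx, the peroxidase, had a level of -1.88 in noise only, -0.50 in dexamethasone 12 h, 2.24 in saline 12 h, -1.33 in dexamethasone 24 h, 0.14 in saline 24 h and 0.23 in baseline. The saline 12 h array was the highest and the noise-only array the lowest, 17.4-fold apart. The saline 24 h and baseline arrays lay closest together.

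Prg2, which encodes major basic protein, had a level of 1.49 in noise only, 3.22 in dexamethasone 12 h, 5.95 in saline 12 h, 1.70 in dexamethasone 24 h, 3.18 in saline 24 h and 3.44 in baseline. Its range over the arrays was 22.0-fold, between those of the Prg3 probes. Dexamethasone 12 h, saline 24 h and baseline formed a middle group in Prg2, with noise only and dexamethasone 24 h below it.

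Prg3, the homologue of major basic protein, was read by a pair of probes, of which the one with the higher mean stands for the gene. That probe had a level of -1.38 in noise only, 0.39 in dexamethasone 12 h, 2.95 in saline 12 h, -1.02 in dexamethasone 24 h, 0.17 in saline 24 h and 0.47 in baseline. The exon-spanning probe had a level of -2.19 in noise only, -0.48 in dexamethasone 12 h, 2.33 in saline 12 h, -1.98 in dexamethasone 24 h, -0.61 in saline 24 h and -0.32 in baseline. Both probes ordered the arrays in the same way, with saline 12 h highest and noise only lowest. The range was 20.2-fold on the probe that stands for the gene and 23.0-fold on the exon-spanning probe.

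Ear1 had a level of 0.14 in noise only, 1.61 in dexamethasone 12 h, 4.29 in saline 12 h, 0.34 in dexamethasone 24 h, 1.50 in saline 24 h and 1.85 in baseline. Ear2 had a level of 2.23 in noise only, 3.51 in dexamethasone 12 h, 6.02 in saline 12 h, 2.49 in dexamethasone 24 h, 3.47 in saline 24 h and 3.87 in baseline. In both ribonucleases the saline 12 h array stood apart above the others, and the noise-only and dexamethasone 24 h arrays were the lowest. The range was 17.8-fold in Ear1 and 13.8-fold in Ear2, the narrowest of the 5 genes.

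**Figure D1:**
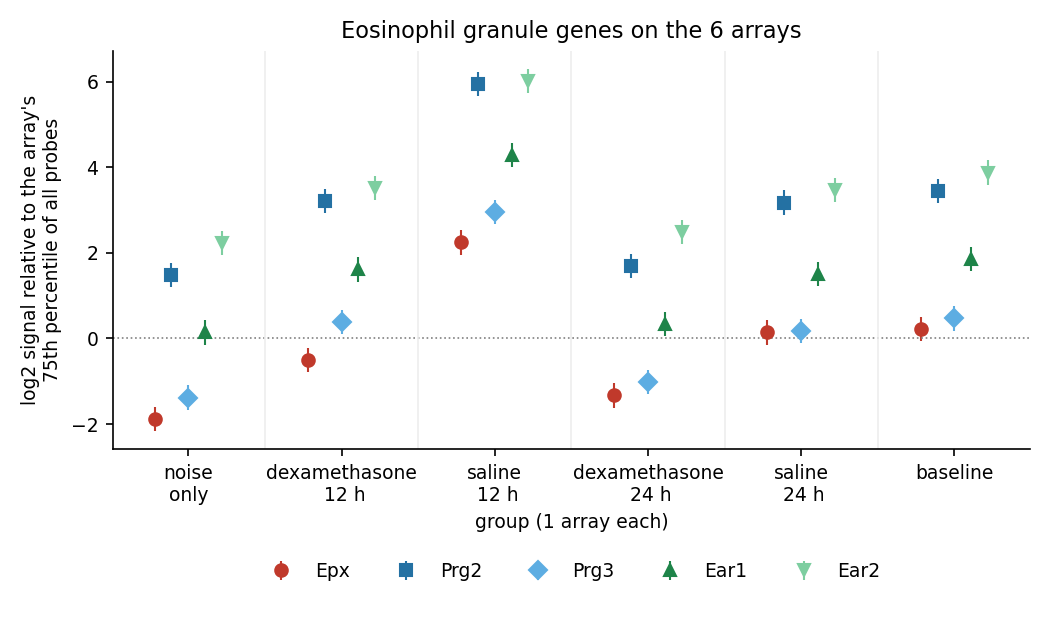
Level of Epx, Prg2, Prg3, Ear1 and Ear2 on each of the 6 arrays, as log2 signal relative to the array's 75th percentile, with groups on the horizontal axis and bars of 1.96 spot errors. All 5 genes are highest on the saline 12 h array and lowest on the noise-only array, and heights of different genes are not comparable because each is read by its own probe.

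In all 5 genes saline 12 h was the highest array and baseline came next, noise only was the lowest and dexamethasone 24 h the next lowest. Dexamethasone 12 h lay above saline 24 h in Prg2, Prg3, Ear1 and Ear2, and below it in Epx. Neighbours in this order did not all lie beyond spot error. Saline 12 h exceeded baseline beyond spot error in 5 of 5 genes, and saline 24 h and dexamethasone 12 h each exceeded dexamethasone 24 h in 5 of 5. Baseline exceeded dexamethasone 12 h beyond spot error in 1 of 5 genes, which was Epx, and exceeded saline 24 h in 1 of 5, which was Ear2. Dexamethasone 12 h and saline 24 h differed beyond spot error in 1 of 5, again Epx, at a log2 difference of -0.64. Dexamethasone 24 h exceeded noise only by 0.20 to 0.55, with the interval off 0 in 1 of 5 genes, which was Epx.

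With each gene centred on its mean over the arrays, the mean profile of the 5 genes was -1.57 in noise only, -0.04 in dexamethasone 12 h, 2.60 in saline 12 h, -1.26 in dexamethasone 24 h, -0.00 in saline 24 h and 0.28 in baseline. The 5 genes differed from each other by 0.21 in baseline and by 0.46 in saline 24 h, the smallest and the widest spread of the 6 arrays. The farthest that any member lay from the mean profile was 0.33, for Epx on the saline 24 h array. These departures are small beside the range of the profile, and genes chosen for a shared pattern resemble each other by that choice.

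Dexamethasone at 12 h was set against saline at 12 h to ask how the glucocorticoid altered the cochlear transcriptome after noise. All 5 granule genes were lower in the dexamethasone 12 h array, by a median log2 difference of -2.68, or 6.40-fold. Epx was lower by 6.69-fold, with a log2 difference of -2.74 (interval -3.14 to -2.34). Prg2 had a log2 difference of -2.73 (interval -3.13 to -2.33), and Prg3 of -2.56 (interval -2.96 to -2.16). The exon-spanning probe of Prg3 gave -2.81. Ear1 had a log2 difference of -2.68 (interval -3.08 to -2.28) and Ear2 of -2.50 (interval -2.90 to -2.10). All 5 intervals lay beyond 2-fold. Among the 24179 genes well above background on both arrays, 453 were at least 2-fold lower, which is 1.87%, and 5 of the 5 members were among them. Between 13 and 26 measured genes had a lower difference than a given member, and the median over all measured genes was -0.02.

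**Figure D2:**
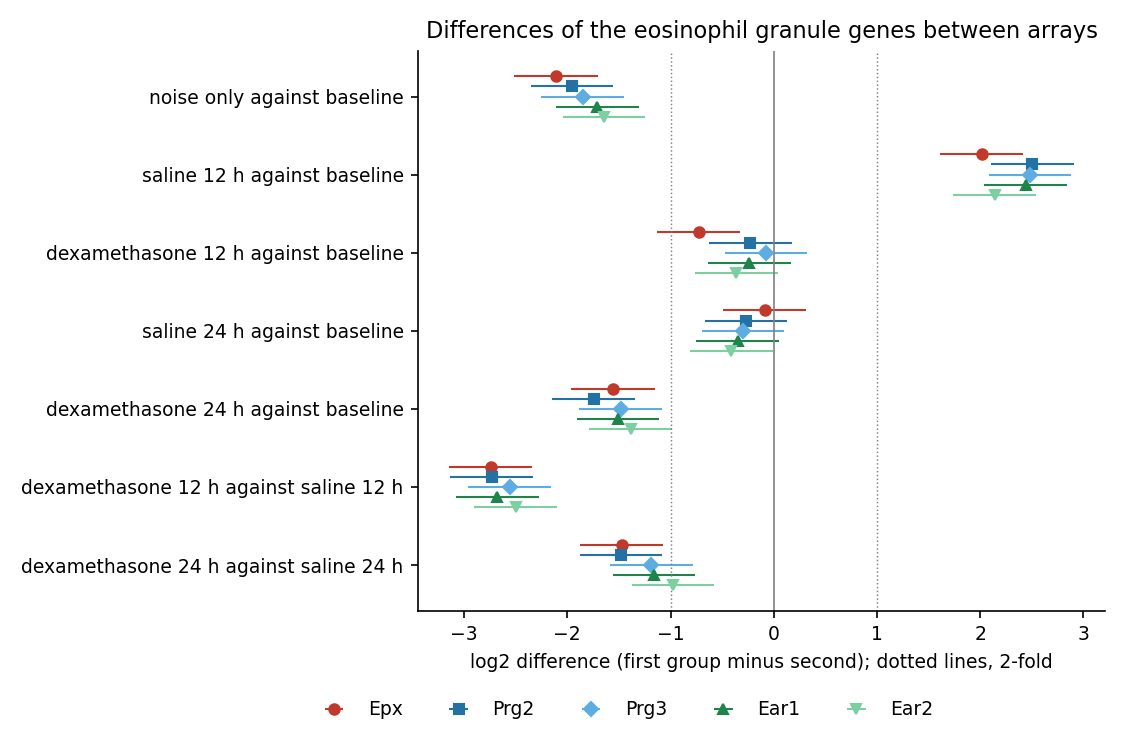
Log2 differences of the 5 granule genes in 7 comparisons, first group minus second, with bars of 1.96 spot errors and dotted lines at 2-fold. Differences of dexamethasone 12 h against saline 12 h lie between -2.74 and -2.50, those of saline 12 h against baseline between 2.02 and 2.51, and those of dexamethasone 12 h and saline 24 h against baseline lie between -0.41 and -0.07, except Epx in dexamethasone 12 h at -0.73.

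At 24 h the granule genes were again lower in the dexamethasone array than in the saline array, by a median of -1.19, or 2.27-fold. Prg2 had a log2 difference of -1.48 (interval -1.88 to -1.08) and Epx of -1.47 (interval -1.88 to -1.07). Prg3 had a log2 difference of -1.19 (interval -1.59 to -0.78), and its exon-spanning probe gave -1.37. Ear1 had a log2 difference of -1.16 (interval -1.56 to -0.76), and Ear2 of -0.98 (interval -1.38 to -0.58), just short of 2-fold. Among 22710 measured genes, 347 were at least 2-fold lower, which is 1.53%, and 4 of the 5 members were among them. Between 85 and 374 measured genes had a lower difference than a given member.

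The 12 h and 24 h dexamethasone comparisons share no array, and the difference was smaller in size at 24 h in every member. The 24 h log2 difference minus the 12 h one was 1.27 in Epx (interval 0.70 to 1.84), 1.25 in Prg2 (interval 0.69 to 1.82) and 1.37 in Prg3 (interval 0.81 to 1.94). It was 1.52 in Ear1 (interval 0.95 to 2.08) and 1.53 in Ear2 (interval 0.96 to 2.09). The saline arrays themselves differed between the times. In saline 24 h the members were lower than in saline 12 h by log2 differences of -2.79 to -2.10, while dexamethasone 24 h lay 0.83 to 1.52 below dexamethasone 12 h. Both of these contrasts in time run across the slides.

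**Figure D3:**
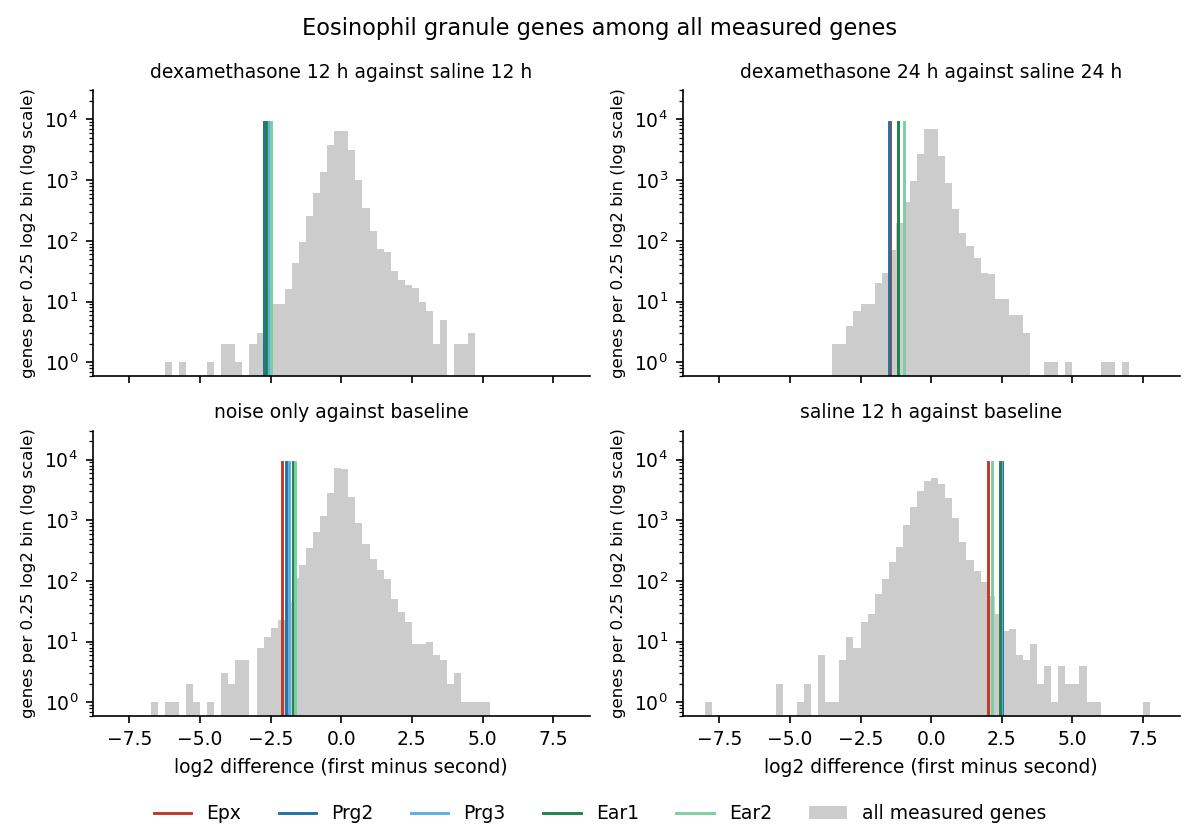
Number of measured genes per 0.25 bin of log2 difference, on a log scale, in 4 comparisons, with coloured lines at the 5 granule genes. The lines lie at -2.74 to -2.50 for dexamethasone 12 h against saline 12 h, at -1.48 to -0.98 for dexamethasone 24 h against saline 24 h, at -2.11 to -1.64 for noise only against baseline and at 2.02 to 2.51 for saline 12 h against baseline, and lines of like value cover each other.

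Each group was also set against baseline, to ask how noise, with or without an injection, altered the genes. These 5 comparisons share the baseline array, and the saline arrays enter the dexamethasone comparisons too, so the differences are not independent of each other. In noise only all 5 granule genes were lower than in baseline, by a median of -1.85, or 3.61-fold. The log2 difference was -2.11 in Epx, -1.96 in Prg2, -1.85 in Prg3, -1.71 in Ear1 and -1.64 in Ear2, and all 5 intervals lay beyond 2-fold. Of 24161 measured genes 766 were at least 2-fold lower, which is 3.17%, and 5 of the 5 members were among them.

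In saline 12 h the members were higher than in baseline, by a median of 2.44, or 5.43-fold. Prg2 was 5.68-fold higher, Prg3 5.59-fold, Ear1 5.43-fold, Ear2 4.41-fold and Epx 4.04-fold. Of 24285 measured genes 1070 were at least 2-fold higher, which is 4.41%, and 5 of the 5 members were among them. Scaled on the spike-in control RNA in place of the 75th percentile, the members' median was 1.62 and all 5 stayed at least 2-fold higher. That scaling moved the median difference of all measured genes by -0.82 in this comparison, -0.53 in dexamethasone 12 h against baseline, -0.40 in dexamethasone 24 h against baseline, -0.30 in saline 24 h against baseline, -0.10 in noise only against baseline, 0.29 in dexamethasone 12 h against saline 12 h and -0.10 in dexamethasone 24 h against saline 24 h.

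In dexamethasone 12 h the granule genes other than Epx were within spot error of baseline. The log2 difference was -0.73 in Epx (interval -1.13 to -0.32), -0.23 in Prg2, -0.07 in Prg3, -0.24 in Ear1 and -0.36 in Ear2, and the intervals of the last 4 spanned 0. Of 23822 measured genes 1715 were at least 2-fold apart in either direction, which is 7.2%, and 0 of the 5 members were among them. With spike-in scaling, Epx was at least 2-fold lower, at -1.26. Prg2 then lay at -0.76, Prg3 at -0.61, Ear1 at -0.77 and Ear2 at -0.89, so lying within spot error depended on the scaling.

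Dexamethasone 24 h lay below baseline in all 5 genes, by a median of -1.51, or 2.85-fold. The log2 difference was -1.75 in Prg2, -1.56 in Epx, -1.51 in Ear1, -1.48 in Prg3 and -1.39 in Ear2. Of 23418 measured genes 473 were at least 2-fold lower, which is 2.02%, and 5 of the 5 members were among them.

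In saline 24 h the members were within 0.41 of baseline on the log2 scale. The log2 difference was -0.09 in Epx, -0.27 in Prg2, -0.30 in Prg3, -0.35 in Ear1 and -0.41 in Ear2, and Ear2 alone had an interval off 0 (-0.81 to -0.01). Of 22966 measured genes 791 were at least 2-fold apart in either direction, which is 3.44%, and 0 of the 5 members were among them. With spike-in scaling the log2 difference was -0.38 in Epx, -0.57 in Prg2, -0.60 in Prg3, -0.65 in Ear1 and -0.71 in Ear2. For Prg2, Prg3 and Ear1, lying within spot error depended on the scaling here too, while Epx stayed within it.

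Most of the close relatives of Ear1 and Ear2 on the array followed the same profile. Of 11 other genes of the eosinophil-associated ribonuclease family, 7 were on the array and 5 of them, Ear6, Ear7, Ear10, Ear12 and Rnase2a, were well above background on all 6 arrays. The probe named Ear4 was well above background in dexamethasone 12 h alone, at a level of -4.26, a dim processed signal of 30.7. The transcripts assigned to that probe name Ear14 of this family, so which copy it reads is uncertain. Rnase2b was well above background in saline 12 h and baseline alone, at -3.18 and -4.47. In dexamethasone 12 h against saline 12 h all 5 measured relatives were at least 2-fold lower, with a median of -2.62. Ear10 had a log2 difference of -2.71, Ear6 of -2.66, Ear12 of -2.62 and Rnase2a of -2.57. In dexamethasone 24 h against saline 24 h 4 of 5 were at least 2-fold lower, with a median of -1.20. In noise only against baseline 5 of 5 were at least 2-fold lower, with a median of -1.78. In saline 12 h against baseline 6 of 6 were at least 2-fold higher, with a median of 2.12. The probe of Ear12 is assigned to 4 RefSeq transcripts, those of Ear10 and Ear2 among them. The probe behind the Ear7 values is assigned to 2, with Ear6 among them, so the relatives are not independent readings.

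The genes whose profile over the 6 arrays lay nearest to the mean profile of the members were sought among 17387 named genes well above background on at least 1 array. The measure was the root mean square distance between mean-centred log2 levels. The members themselves lay at distances of 0.0741 (Ear1) to 0.206 (Epx). The 5 nearest other genes were Ear12 at 0.0775, Ear10 at 0.0908, Rnase2a at 0.0945, Ear7 at 0.106 and Ear6 at 0.107, and these were the 5 genes nearer than the farthest member. Farther out were Rnase12, a gene of the wider ribonuclease family, at 0.343, and Unc93a2 at 0.387, both well above background on all 6 arrays. Il20ra, which encodes a cytokine receptor chain, had a distance of 0.280 but was well above background on 2 of the 6 arrays, saline 12 h and baseline, so its distance rests largely on background signal. Pearson's r with the mean profile was 0.97 for Unc93a2, but 372 genes had an r of at least 0.95 over these 6 arrays.

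The promoters of Ear1 and Ear2 are shown because their upstream sequences are near copies. Both genes followed nearly the same profile, but the Ear2 probe is assigned to both, so the profiles are not separate readings. A link between promoter and profile was not tested. RefSeq promoter sequence on GRCm38.p6 was found for 4 of the 5 members, Epx, Prg3, Ear1 and Ear2. The 250 bases before the start lie at chr14:43819640-43819889 on the minus strand for Ear1 and at chr14:44102404-44102653 on the plus strand for Ear2. Aligned, they share 246 of 248 bases, or 99.2%. The capitals mark the single match of each to TTGCNNAA, a form of the C/EBP motif, whose first base lies 92 bases before the Ear1 start and 90 before the Ear2 start.
Ear1: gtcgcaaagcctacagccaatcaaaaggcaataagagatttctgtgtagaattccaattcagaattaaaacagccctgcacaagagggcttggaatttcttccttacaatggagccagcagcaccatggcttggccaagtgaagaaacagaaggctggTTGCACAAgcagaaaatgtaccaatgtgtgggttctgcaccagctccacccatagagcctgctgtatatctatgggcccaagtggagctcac
Ear2: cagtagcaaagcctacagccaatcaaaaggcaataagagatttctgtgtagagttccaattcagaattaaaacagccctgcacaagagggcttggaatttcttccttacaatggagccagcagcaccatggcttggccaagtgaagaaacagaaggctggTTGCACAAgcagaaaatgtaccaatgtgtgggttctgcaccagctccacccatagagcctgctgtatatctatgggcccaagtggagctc

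Both strands were searched for 4 motifs. TTGCNNAA was present in 9.56% of 32851 mouse promoter windows of the same length, and was not found in the windows of Epx and Prg3. The GATA motif AGATAA, present in 9.99% of windows, the PU.1 motif GAGGAAG, in 10.6%, and the full glucocorticoid response element, in 0.387%, had no match in the windows of Epx, Prg3, Ear1 and Ear2. Each motif was searched in a single form, so other forms of these sites were not counted. These matches describe the letters in these windows, and no binding was measured.

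Surface and enzyme genes listed for eosinophils, not all of them particular to that cell, were less far apart at the median than the granule genes in the comparisons below. The part of the list's make-up in this was not tested. Of 12 such genes, all measured in dexamethasone 12 h against saline 12 h, 3 were at least 2-fold lower and none was at least 2-fold higher, with a median of -0.64. Alox15, a lipoxygenase abundant in eosinophils, had a log2 difference of -2.03, Adgre4, an adhesion receptor of myeloid cells, of -1.91, and Siglecf, the defining surface lectin of mouse eosinophils, of -1.65. Csf2ra, the GM-CSF receptor chain, had a difference of -0.84. In dexamethasone 24 h against saline 24 h 1 of 11 measured genes was at least 2-fold lower, with a median of -0.31. Il5ra, the receptor chain for the main eosinophil growth factor, was that gene, at -1.89, and is named for this count after its value was seen. Alox15 was not well above background in dexamethasone 24 h and was at least 2.16-fold lower there than in saline 24 h. In noise only against baseline 3 of 12 were at least 2-fold lower, with Siglecf at -1.32. In saline 12 h against baseline 2 of 12 were at least 2-fold higher, Alox15 at 1.83 and Il5ra at 1.32, with a median of 0.35 that was -0.47 with spike-in scaling.

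Siglecf had a level of -3.54 in noise only, -3.00 in dexamethasone 12 h, -1.35 in saline 12 h, -2.87 in dexamethasone 24 h, -2.71 in saline 24 h and -2.23 in baseline. Like the granule genes, Siglecf was highest in saline 12 h and lowest in noise only. Ccr3, the eotaxin receptor, chosen for its role after its values were seen, had a level of -2.89 in noise only, -1.93 in dexamethasone 12 h, -1.11 in saline 12 h, -2.93 in dexamethasone 24 h, -2.41 in saline 24 h and -1.65 in baseline. Ccr3 too was highest in saline 12 h, but its lowest arrays were dexamethasone 24 h and noise only, close together. Of the other listed markers, Alox15, Csf2rb, Csf2rb2, Adgre4 and P2ry14 were also highest in saline 12 h. Il5ra and Cd300lf were highest in saline 24 h, at -1.86 and 2.07, and Cd300lf was lowest in saline 12 h, at 1.01. Csf2ra, Il1rl1 and Adgre1 were highest in baseline, at 2.61, -0.42 and 1.29.

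Transcription factors of the eosinophil lineage differed little, at the median, between dexamethasone 12 h and saline 12 h. Of 10 measured factors, 1 was at least 2-fold lower in dexamethasone 12 h than in saline 12 h, with a median of -0.22 for the list that was 0.07 with spike-in scaling. Irf8, needed for several myeloid lineages, had a log2 difference of -1.22, Cebpe, a factor of granule gene expression, of -0.98, Gata1, needed for eosinophil development, of -0.63, and Xbp1, a secretory pathway factor, of 0.53. In dexamethasone 24 h against saline 24 h 1 of 9 was at least 2-fold lower, which was Gata1 at -1.04. In noise only against baseline 2 of 10 were at least 2-fold lower, with a median of -0.36. In saline 12 h against baseline the median was 0.18, or -0.64 with spike-in scaling. There 1 of 10 was at least 2-fold lower, which was Cebpa, at levels of -1.52 and -0.34.

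Of 14 chemokines and growth factors that act on eosinophils, 10 were measured in dexamethasone 12 h against saline 12 h. Of these, 9 lay below 0, beside 52.9% of all measured genes, and 0 were at least 2-fold apart, beside 3.54%. Their median was -0.40, or -0.11 with spike-in scaling. Il4, a cytokine of type 2 immunity, was not well above background in dexamethasone 12 h and was at least 3.95-fold lower there than in saline 12 h. Ccl5, a chemoattractant of eosinophils, was 1.99-fold lower, just short of 2-fold. Ccl8, also a chemoattractant, had a log2 difference of -0.88, Il25, an alarmin of type 2 immunity, of 0.70, and Il13 of -0.51. In saline 12 h against baseline 4 of 10 were at least 2-fold higher, with a median of 0.54 that was -0.28 with spike-in scaling. These were Ccl7, a monocyte and eosinophil chemoattractant, at 3.80, Il4 at 1.52, Ccl8 at 1.34 and Ccl3 at 1.15, named for this count. Ccl7 had a log2 difference of -0.02 in dexamethasone 12 h against saline 12 h. Ccl11, the eotaxin gene, chosen after its values were seen, had a log2 difference of -0.33 in dexamethasone 12 h against saline 12 h and of -0.00 in saline 12 h against baseline.

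Markers of other blood cells and of their precursors were lower too on several arrays where the granule genes were low, by less at the median. In dexamethasone 12 h against saline 12 h, 2 of 14 neutrophil granule genes were at least 2-fold lower and 1 was at least 2-fold higher, with a median of -0.71. Ctsg, cathepsin G, had a log2 difference of -1.05, Camp, the cathelicidin, of -1.05, Prtn3, proteinase 3, of -0.98, and Ltf, lactoferrin, which glands also make, of 1.16. Of 10 measured mast cell and basophil genes, 3 were at least 2-fold lower, with a median of -0.61, among them the basophil proteases Mcpt8 at -1.77 and Prss34 at -1.70. Of 8 measured B cell precursor genes 4 were at least 2-fold lower, with a median of -1.12, led by Igll1 at -3.23 and Vpreb1 at -2.79, the surrogate light chain genes. Erythroid genes had a median of -0.66, T and NK cell genes of -0.52, and macrophage genes of -0.27. With spike-in scaling these medians were -0.37, -0.24 and 0.02. That scaling gave medians of -0.42 for neutrophil granule, -0.32 for mast cell and basophil and -0.84 for B cell precursor genes.

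In dexamethasone 24 h against saline 24 h, erythroid genes stood with the granule genes, at a median of -1.18 with 7 of 10 at least 2-fold lower, among them Ahsp, the haemoglobin-stabilising protein, at -1.37. Neutrophil granule genes had a median of -0.39 and B cell precursor genes of -0.18 there. In dexamethasone 24 h against baseline, 11 of 14 neutrophil granule genes were at least 2-fold lower, with a median of -1.19. Of the erythroid genes 6 of 10 were, with a median of -1.15, and of the B cell precursor genes 1 of 9, with -0.47. The median of the eosinophil granule genes in that comparison was -1.51. In noise only against baseline, 8 of 14 neutrophil granule genes were at least 2-fold lower, with a median of -1.08, and 6 of 8 B cell precursor genes, with a median of -1.32. In saline 12 h against baseline, 0 of 14 neutrophil granule genes were at least 2-fold apart, with a median of 0.34 that was -0.48 with spike-in scaling. Bone-forming genes had a median of -0.57 in dexamethasone 12 h against saline 12 h and of -0.58 in noise only against baseline. Their median was 0.03 in dexamethasone 24 h against saline 24 h and 0.01 in saline 12 h against baseline. With spike-in scaling these last medians were -0.07 and -0.81.

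**Figure D4:**
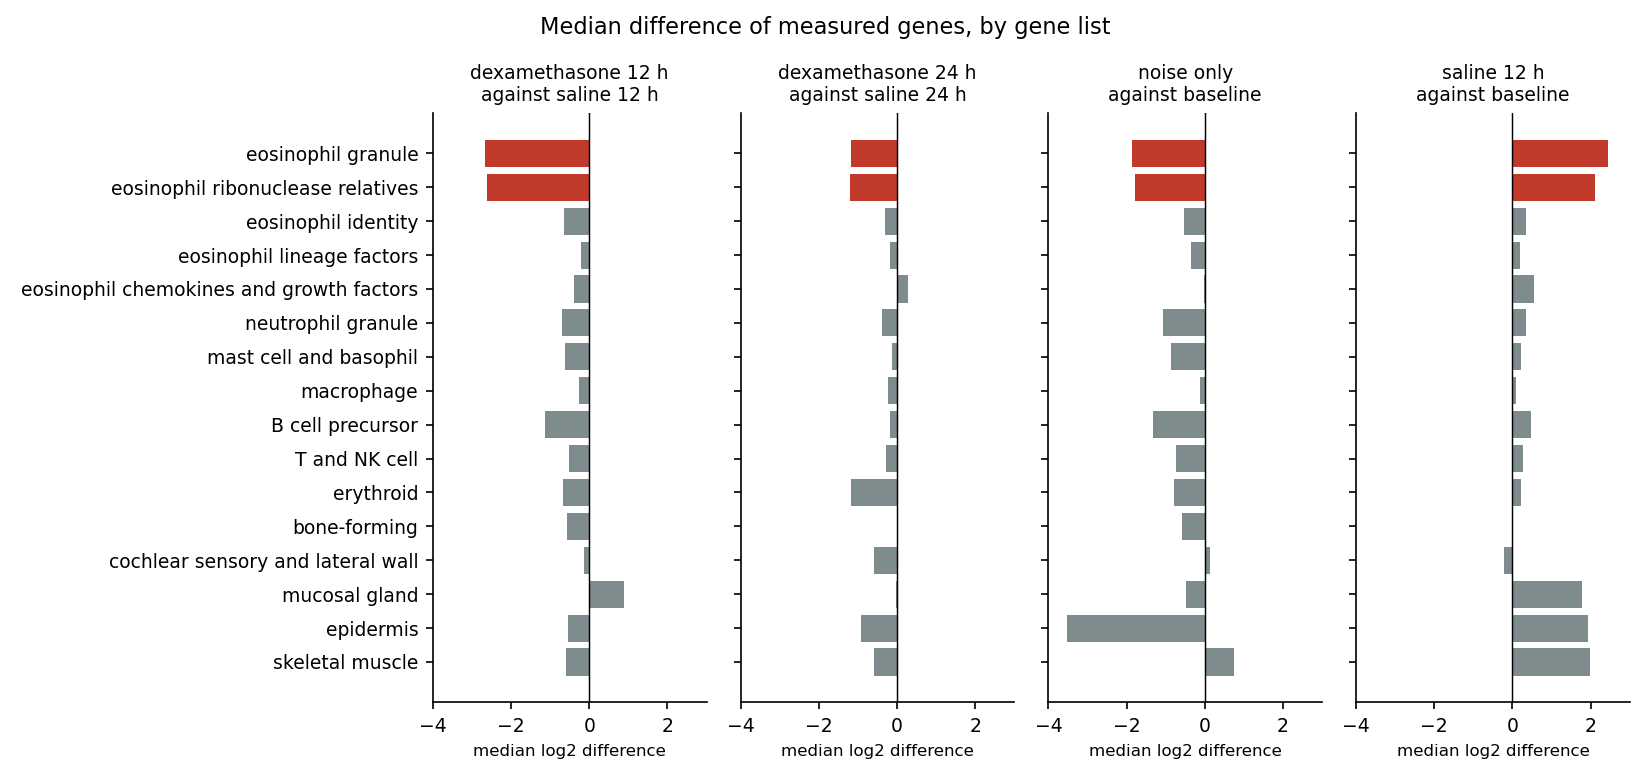
Median log2 difference of the measured genes of 16 lists in 4 comparisons, with the granule genes and their ribonuclease relatives in red; with spike-in scaling the lineage factor, macrophage and cochlear bars of dexamethasone 12 h against saline 12 h, the bone-forming bar of dexamethasone 24 h against saline 24 h and, in saline 12 h against baseline, every positive bar but the red, mucosal gland, epidermis and skeletal muscle ones change sign. In dexamethasone 12 h against saline 12 h the 2 red bars lie at -2.68 and -2.62 and the B cell precursor bar at -1.12; in saline 12 h against baseline the mucosal gland, epidermis and skeletal muscle bars lie at 1.78, 1.92 and 1.99, beside 2.44 for the granule genes.

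Genes of tissues next to the cochlea varied over the same arrays. Mucosal gland genes were higher in dexamethasone 12 h than in saline 12 h, opposite in sign to the granule genes, with 6 of 12 at least 2-fold higher and a median of 0.90. Reg3g, an antimicrobial lectin, had a log2 difference of 2.46 and Tff2, a mucus-associated peptide, of 1.59. The summed signal of the 12 genes, in units of the array's 75th percentile, was 359 in noise only, 1813 in dexamethasone 12 h, 1111 in saline 12 h, 333 in dexamethasone 24 h, 351 in saline 24 h and 458 in baseline. It was thus high on both 12 h arrays, where the granule genes were high on the saline array alone.

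Epidermal genes had medians of the same sign as the granule genes in 6 of the 7 comparisons, the exception being dexamethasone 12 h against baseline, at 0.92. Their median was -0.53 in dexamethasone 12 h against saline 12 h, with 4 of 9 at least 2-fold lower, -0.91 in dexamethasone 24 h against saline 24 h, -3.52 in noise only against baseline and 1.92 in saline 12 h against baseline. Krt10, a keratin of the upper epidermis, had log2 differences of -1.55, -0.92, -1.51 and 1.96 in these 4 comparisons. The summed signal of the 9 epidermal genes on the array was 4.36 in noise only, 72.6 in dexamethasone 12 h, 113 in saline 12 h, 4.80 in dexamethasone 24 h, 11.5 in saline 24 h and 32.2 in baseline. Skeletal muscle genes had a median of -0.60 in dexamethasone 12 h against saline 12 h and of 1.99 in saline 12 h against baseline, of the same sign as the granule genes, and of -0.58 in dexamethasone 24 h against saline 24 h. Their sign was opposite to that of the granule genes in noise only against baseline, at 0.75, dexamethasone 12 h, at 1.47, dexamethasone 24 h, at 0.24 (-0.16 with spike-in scaling), and saline 24 h, at 0.98. The part of these neighbouring tissues in the differences of the granule genes was not tested.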

How the data were processed

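Per the labels, cochlear RNA labelled with Cy3 was hybridised to 6 single-colour Agilent arrays, 1 per group. The deposited scanner files give linear intensity for each spot, extracted by the authors with Agilent Feature Extraction 10.10.1.1 and annotated on mm9, per the file headers. The software subtracted background, and its preset multiplicative error of 10% dominated the spot error. The deposited series matrix gives these arrays as log2 values, by steps not given in the sources used here. It matched log2 processed signal minus a constant for 99.99% to 100.0% of single-spot probes within 0.01. Its column medians were -2.979 in noise only, -2.81 in dexamethasone 12 h, -2.85 in saline 12 h, -2.899 in dexamethasone 24 h, -2.928 in saline 24 h and -2.952 in baseline, so scale, centring and direction were found from the values.

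Outlier spots were dropped. The processed signal was put on the log2 scale, less the 75th percentile of all non-control probes of its array, and replicate spots were averaged per probe. Of 56605 probes 56589 were used, and 32983 were named through RefSeq accessions (GRCm38.p6, names only), which changed 1535 names. A gene was represented by its probe with the highest mean. Genes well above background on both arrays were measured, and at least 2-fold apart was the call. With 1 array per group no test was made, and precision is limited by how few arrays there were. The members, the 16 gene lists and the alternatives were chosen with earlier results of these data known, so no list is independent evidence. Named list genes were up to 4 measured members of each list with the widest difference in dexamethasone 12 h against saline 12 h, and the likeness list was the 8 nearest genes. Genes outside this rule were named after their values were seen, and at least N-fold marks a gene dim on 1 array, taken against the higher of that array's lowest signal well above background and its own. Alternatives were normexp (offset 50) with quantile normalization, quantile normalization alone, a percentile taken over probes that all arrays detected, scaling on 7 of 10 E1A spike-in probes, the series matrix, the mean over a member's probes, and other filters on dim genes. Code was tested on simulated data. R 4.3.3 with limma 3.58.1 and Python 3.11.15 with numpy 2.4.6 and pandas 2.3.3 were used.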

Additional observations from a re-analysis of the deposited data

Results flagged for a closer look

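In each of the 5 granule genes, saline lay above baseline at 12 h and below it at 24 h. These opposite directions were not tested, and the 24 h differences of Epx, Prg2, Prg3 and Ear1 lay within spot error. The 24 h log2 difference minus the 12 h one was -2.10 in Epx, whose difference from baseline was 2.02 at 12 h and -0.09 at 24 h. It was -2.77 in Prg2, with differences of 2.51 at 12 h and -0.27 at 24 h, and -2.78 in Prg3, with 2.48 at 12 h and -0.30 at 24 h. It was -2.79 in Ear1, with 2.44 at 12 h and -0.35 at 24 h, and -2.55 in Ear2, with 2.14 at 12 h and -0.41 at 24 h. Both differences share the baseline array, and the 12 h array lay on the other slide.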

How the results depend on the processing

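None of the members' differences, nor their medians, reversed in sign under the alternatives run. The members' median in saline 12 h against baseline was 2.44, and was 2.04 with quantile normalization and 1.62 with spike-in scaling. With spike-in scaling the median was -0.77 in dexamethasone 12 h against baseline, where 1 member was then at least 2-fold lower, and -1.91 in dexamethasone 24 h against baseline. The number of members at least 2-fold apart was otherwise within 1.5 times the reported one under each alternative, though spike-in scaling brought Ear2 past 2-fold in dexamethasone 24 h against saline 24 h.

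Counts of all genes at least 2-fold apart depended more on the setting. In the order of noise only, then saline and dexamethasone at 12 h, then saline and dexamethasone at 24 h, all against baseline, and last dexamethasone against saline at 12 h and at 24 h, they were 1405, 1902, 1715, 791, 779, 856 and 718 genes. In that order, normexp with quantile normalization gave 685, 987, 859, 411, 369, 393 and 356 genes, no filter on dim probes gave 3456, 5466, 4832, 2897, 2932, 3610 and 2813, and genes at or above the median signal gave 441, 645, 510, 207, 195, 193 and 197. Spike-in scaling gave 7677 genes in saline 12 h, 3828 in dexamethasone 12 h and 1551 in dexamethasone 24 h against baseline. It also moved the split of higher against lower genes, to 536 and 982 in noise only, 222 and 7455 in saline 12 h, 379 and 3449 in dexamethasone 12 h, 229 and 862 in saline 24 h and 160 and 1391 in dexamethasone 24 h against baseline, 818 and 185 in dexamethasone 12 h and 302 and 489 in dexamethasone 24 h against saline. Without it the splits were 639 and 766, 1070 and 832, 1085 and 630, 396 and 395, 306 and 473, 403 and 453, and 371 and 347. Quantile normalization gave 871 and 1049 in saline 12 h and 901 and 825 in dexamethasone 12 h against baseline. Apart from the settings' own construction (filters that keep more or fewer genes), the cause was not tested.

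No paired analysis was possible because each group had 1 array. For the same reason the slide as a block and the removal of a replicate were not run. The spread between animals was not measured here, so all differences are between single arrays.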
